A study of Mus musculus with 9 samples.

Results

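The genes described here build, stock and shape mitochondria: the translocases of the outer and inner membrane that bring in proteins, the chaperones and proteases that fold and clear them, and the factors that fuse and divide the organelle. They were chosen by symbol: every gene whose symbol starts with Tomm or Timm, and a set list of chaperone, protease, cristae, fusion and fission genes. Of these, 47 genes had an array row that names them alone, and 45 passed a filter on dim rows, among 16639 genes tested in all. The 2 that did not pass are Timm8a2, with a mean of 4.54 over all arrays, and Tomm20l, with 5.04, both under the floor of 5.31 on the log2 scale. Dnajc19, Tomm5, Timm10b, Phb and Tomm6 share their row with a second symbol and were not used.

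RNA of whole inguinal white adipose tissue, a subcutaneous depot at the hind limb of mice, was measured on 9 Affymetrix arrays, 3 in each of 3 groups. All mice carried Adiponectin-rtTA, a doxycycline-dependent activator expressed in adipocytes, and TRE-Cre, the recombinase it switches on, and all ate chow with doxycycline for 28 days from 8 weeks of age. The control and the cold-exposed groups were Zfp423+/+, and the knockout group was Zfp423loxP/loxP, so that Zfp423, a zinc finger protein that holds adipocytes in the white state, is deleted in adipocytes and not in the other cells of the pad. Control and knockout mice stayed at room temperature, and the cold group spent the last 14 days at 6 °C, which makes thermogenic beige adipocytes form. The study asked which genes of inguinal adipocytes depend on Zfp423, with the cold group showing the tissue once beige cells have formed. Nothing in the labels states that each array is a separate mouse, so the p-values below measure array-to-array spread that may be technical. The array label of cold replicate 3 carries a prefix that differs from that of the others.

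Nearly all mitochondrial proteins are encoded in the nucleus, made in the cytosol and threaded through the TOM channel of the outer membrane. From there the small TIM chaperones guide them across the intermembrane space, SAM places barrel proteins in the outer membrane, TIM22 places carriers in the inner membrane, and TIM23 with its ATP-driven motor pulls the rest into the matrix. Chaperonin folds them, proteases of the matrix and inner membrane remove damaged ones, MICOS and the prohibitins organise the cristae, and mitofusins, Opa1 and Dnm1l set how the organelles fuse and divide. Beige adipocytes are rich in mitochondria, whose uncoupling protein Ucp1 turns fuel into heat.

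The 250 bases before the transcription start of 5 members are given here, from RefSeq on GRCm38.p6, because these genes recur in the results: Spg7 was the member past the threshold, Hspe1 and Hspd1 share a start region, and Opa1, Timm23 and Phb2 carry matches to motifs searched. Capitals mark those matches on either strand.
Spg7, chr8:123065258-123065507, plus strand: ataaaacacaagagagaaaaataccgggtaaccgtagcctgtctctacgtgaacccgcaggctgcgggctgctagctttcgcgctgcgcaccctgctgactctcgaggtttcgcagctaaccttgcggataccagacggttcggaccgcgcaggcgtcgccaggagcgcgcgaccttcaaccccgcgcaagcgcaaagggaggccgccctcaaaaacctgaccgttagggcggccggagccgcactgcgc
Hspe1, chr1:55087898-55088147, plus strand: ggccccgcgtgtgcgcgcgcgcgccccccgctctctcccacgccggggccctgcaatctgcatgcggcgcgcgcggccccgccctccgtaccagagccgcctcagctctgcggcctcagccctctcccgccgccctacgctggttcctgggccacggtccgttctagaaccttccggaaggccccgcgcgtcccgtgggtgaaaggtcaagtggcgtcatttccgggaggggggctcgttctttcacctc
Opa1, chr16:29579084-29579333, plus strand: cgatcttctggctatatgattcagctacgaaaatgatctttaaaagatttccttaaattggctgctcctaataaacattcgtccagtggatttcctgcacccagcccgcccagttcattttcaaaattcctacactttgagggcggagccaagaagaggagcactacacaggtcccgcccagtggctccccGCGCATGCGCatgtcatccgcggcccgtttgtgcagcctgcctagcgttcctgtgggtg
Timm23, chr14:32201892-32202141, minus strand: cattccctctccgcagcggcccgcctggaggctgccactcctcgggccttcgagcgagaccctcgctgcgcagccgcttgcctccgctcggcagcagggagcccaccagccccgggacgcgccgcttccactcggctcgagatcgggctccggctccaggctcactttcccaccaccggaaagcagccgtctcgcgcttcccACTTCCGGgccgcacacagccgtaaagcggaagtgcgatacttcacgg
Phb2, chr6:124712039-124712288, plus strand: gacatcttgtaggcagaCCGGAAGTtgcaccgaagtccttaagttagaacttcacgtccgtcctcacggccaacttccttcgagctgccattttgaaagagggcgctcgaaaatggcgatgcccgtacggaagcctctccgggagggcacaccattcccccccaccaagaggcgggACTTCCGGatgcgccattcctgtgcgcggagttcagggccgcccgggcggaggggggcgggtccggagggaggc

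Windows from 250 bases before to 50 after the start were listed for 41 of the 47 genes, those of Afg3l2, Grpel2, Hspa9, Timm21, Tomm40l and Tomm7 not being listed. The ETS motif CCGGAAGT, read on both strands in any listed window of a gene, was found for 10 of the 41 (24.4%), against 8.43% of the 9992 tested genes with a window and 4.31% of all 27025 genes with one. These 10 were Fis1, Mfn1, Parl, Phb2, Timm10, Timm23, Timm29, Timm8a2, Timmdc1 and Tomm70a. The 41 include Timm8a2 and Tomm20l, which were under the floor and so are not among the tested genes. The NRF1 core GCGCATGCG was found for Clpx, Opa1 and Timm13 (7.32%, against 3.81% of tested genes), and the Opa1 match begins 59 bases before the start, where its reverse complement overlaps it. AAGATGGCG, the YY1 motif, was found for Parl and Timm50 (4.88%, against 3.28%), and TCAAGGTCA, bound by estrogen-related receptors, for Timm8b (2.44%, against 0.32%). The CREB motif TGACGTCA was found for 0 of the 41, against 3.25% of tested genes. GC content was alike, with a median of 60% for the members and 60.3% for tested genes. Hspd1, on the minus strand, has a pair of listed starts, 95 and 216 bases from the start of Hspe1 on the plus strand and on opposite sides of it. A match is a run of letters and shows no binding.

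Mean signal of most of these genes was higher in knockout and in cold-exposed tissue than in controls, by medians of 0.55 and 0.45 on the log2 scale, where the medians over all tested genes were 0.02 and -0.02. In knockout tissue 40 of the 45 had a mean above control, over a range of -0.19 to 1.78, and 10 of them were above 1. In the cold 42 of the 45 were above control, over a range of -0.29 to 1.27, with 3 above 1. Large differences were found in several roles: the motor chaperone Hspa9 (1.19 in the knockout and 1.27 in the cold), the sorting protein Samm50 (1.10 and 1.23), the exchange factor Grpel1 (1.06 and 1.10), the protease subunit Afg3l2 (1.08 and 0.92) and the channel Tomm40 (1.13 and 0.72). The top of the knockout range is the small chaperone Timm8a1 on its brightest row, whose ID names another chromosome than the gene's; on its other row the difference was 0.94. The 2 contrasts share the 3 control arrays, so a high or low control array moves both. In bulk tissue more cells of a mitochondria-rich type and more RNA per cell cannot be told apart.

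Against this the replicate error in the knockout group was wide, and few members passed the test. In knockout against control, limma with Benjamini-Hochberg adjustment over all genes called 0 of the 45, while 32 had an unadjusted p under 0.05, each of them higher; of all genes, 0.379% were called. Every knockout array lay above every control array for 31 of the 45, and such an order held for 9.40% of all genes. In cold against control the test called 1 member, the protease subunit Spg7, while 20 had an unadjusted p under 0.05; of all genes, 1.56% were called. All cold arrays lay above all control arrays for 35 of the 45, against 14.7% of all genes. They lay below all control arrays for 1, Tomm34, an order that held for 3035 of the 16639 genes. The F test over the 3 groups called Spg7 too (adjusted p = 0.024) and no other member, with 2.68% of all genes called.

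The counts of calls changed when single arrays were left out. Without knockout replicate 1 the test called 24 members in knockout against control, all higher, with 5.01% of all genes called, and 12 in cold against control, with 4.94%. Among the 24 were Timm8b (0.81 ± 0.07 SE, adjusted p = 0.0093), Timm44 (0.94 ± 0.10, 0.0144), Hspa9 (1.56 ± 0.19, 0.0173) and Hspd1 (1.19 ± 0.15, 0.0176). Without knockout replicate 2 it called 0 (27 at an unadjusted p under 0.05) and 13, with 0.228% and 5.91% of all genes. Fitted without the knockout arrays, cold against control gave 27 members, with 8.1% of all genes called, among them Immt (adjusted p = 0.00185), Afg3l2 (0.0029), Hspa9 (0.00304) and Opa1 (0.004). The error of Hspa9 was 0.08 in that fit and 0.32 where the knockout arrays shared in the estimate of spread. Cold against control had 0 members called when any 1 of the control or cold arrays, or knockout replicate 3, was left out. In these fits 11 to 17 members had an unadjusted p under 0.05, and 0.138% to 0.739% of all genes were called. With the array of each group that most often lay between its other 2 left out, 0 members were called. In that fit 4 members had an unadjusted p under 0.05, and 0 of the 16639 genes were called.

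**Figure D1:**
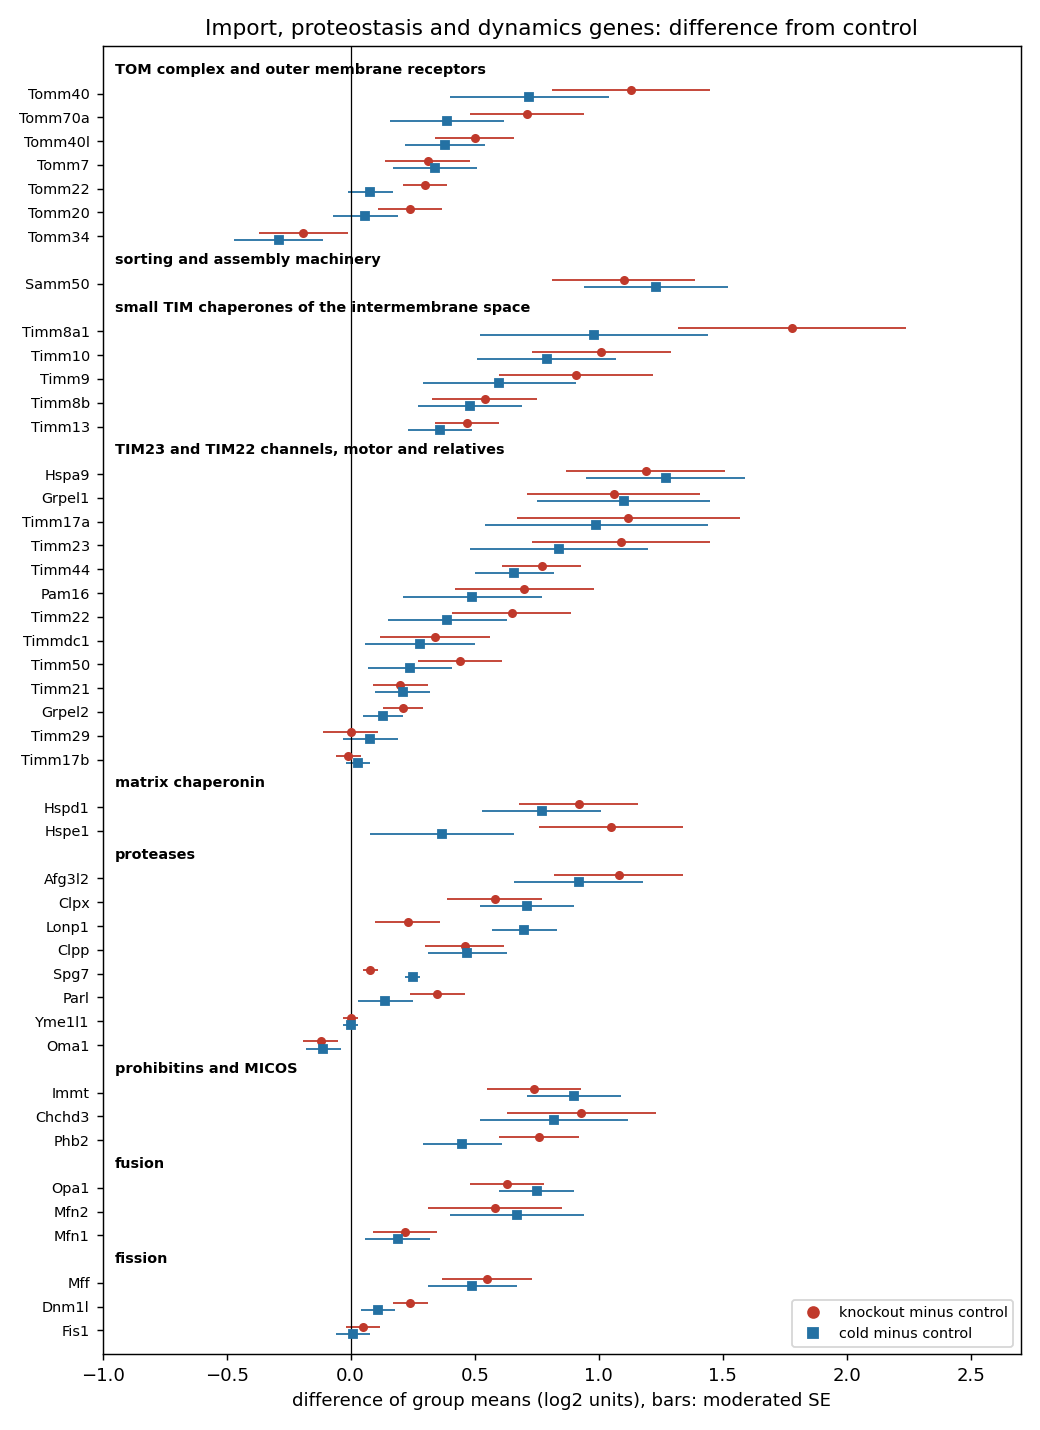
Difference of each tested member from control on the log2 scale, grouped by role, for the knockout (circles) and the cold (squares); bars are the moderated standard errors. Most points lie right of 0, from Timm8a1 at 1.78 in the knockout on its brightest row and Hspa9 at 1.27 in the cold down to Tomm34 at -0.19 and -0.29, while Fis1, Yme1l1, Timm17b and Timm29 lie close to 0.

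TOM, the entry gate, was uneven. Tomm40, the pore, read 10.04, 9.77 and 9.93 on the control arrays, 10.32, 11.76 and 11.06 on the knockout arrays and 10.72, 10.59 and 10.59 on the cold arrays. All knockout and all cold arrays were above control, and the knockout arrays spanned the cold ones. Its differences were 1.13 ± 0.32 (SE, n = 3 a group; limma adjusted p = 0.154) and 0.72 ± 0.32 (0.255). Tomm70a, the receptor for carrier precursors, read 11.82, 11.69 and 11.66 in controls, 11.89, 12.95 and 12.45 in knockouts and 12.11, 12.07 and 12.16 in the cold, again with both groups above control; its differences were 0.71 ± 0.23 (0.206) and 0.39 ± 0.23 (0.375). Tomm20, the receptor for presequences, read 9.67, 9.50 and 9.62 in controls, 9.55, 10.14 and 9.84 in knockouts and 9.67, 9.64 and 9.67 in the cold. Its groups overlapped, and its differences were 0.24 ± 0.13 (0.424) and 0.06 ± 0.13 (0.825).

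Tomm22, the central receptor that joins the pores, was above control on every knockout array (10.86 to 11.21 against 10.65 to 10.81) and overlapped control in the cold. The cold arrays of Tomm22, 10.78 to 10.81, all lay below the knockout arrays (-0.21 ± 0.09, adjusted p = 0.193). Tomm40l, a second pore protein, was above control in both groups (0.50 and 0.38), and Tomm7, a small subunit, overlapped in both (0.31 and 0.34). Tomm34, a cytosolic cochaperone that carries the Tomm name, was the member with the lowest differences, -0.19 and -0.29. Its cold arrays, 8.10 to 8.36, lay below its control arrays, 8.43 to 8.61 (adjusted p = 0.377). Over the 7 TOM genes tested, 0 were called in any of the 3 comparisons, against 0.379%, 1.56% and 2.42% of all genes. At an unadjusted p under 0.05 there were 4, 1 and 0, and the medians against control were 0.31 and 0.34.

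Samm50, the core of the machinery that inserts barrel proteins into the outer membrane, read 10.96, 11.05 and 10.89 in controls, 11.47, 12.66 and 12.07 in knockouts and 12.48, 12.17 and 11.92 in the cold. No control array reached the other groups. The means of the 2 groups were 2.15-fold and 2.34-fold that of control, by 1.10 ± 0.29 (adjusted p = 0.13) and 1.23 ± 0.29 (0.0905) on the log2 scale.

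All 5 tested small TIM chaperones, which shield hydrophobic precursors between the membranes, had higher means in both groups, with medians of 0.91 and 0.60. In the cold all 5 lay above control with no overlap (14.7% of all genes), and in the knockout 4 did (9.40%). The test called 0 in knockout and cold (5 and 2 at an unadjusted p under 0.05), where 0.379% and 1.56% of all genes were called. On its brightest row Timm8a1 had the largest knockout difference of the 45, reading 7.78, 8.01 and 7.82 in controls, 8.63, 10.75 and 9.58 in knockouts and 8.85, 8.83 and 8.87 in the cold. That is 3.44-fold in the knockout (1.78 ± 0.46, adjusted p = 0.13) and 1.97-fold in the cold (0.98 ± 0.46, 0.277). Timm9 and Timm10, which form a ring together, differed by 0.91 and 1.01 in the knockout and by 0.60 and 0.79 in the cold. Timm13, partner of the Timm8 proteins, differed by 0.47 and 0.36, and Timm8b by 0.54 and 0.48.

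The brightest row of Timm8a1, Timm23 and Pam16 has an ID that starts with chromosome 10, while RefSeq places these genes on chromosomes X, 14 and 16. Over 22626 rows the ID prefix matched the RefSeq chromosome for 99.6%. Whether those rows measure the named gene or a copy elsewhere cannot be told from the files. Each of these genes has a second row whose prefix matches. On it Timm8a1 averaged 7.41 in controls, 8.35 in knockouts and 7.93 in the cold, so its differences were 0.94 and 0.52 in place of 1.78 and 0.98, and its knockout difference was then below those of Hspa9 (1.19) and Tomm40 (1.13), among others. Timm23 averaged 11.55, 12.45 and 12.08, with differences of 0.90 and 0.53, and Pam16 7.59, 8.15 and 7.83, with 0.56 and 0.24. The direction was the same on both rows.

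At the inner membrane, Hspa9, Timm17a, Timm23 and Grpel1 had some of the highest differences, while Timm17b, Timm29 and Timm21 had some of the lowest. Timm23, the channel, read on its brightest row 12.08, 12.03 and 11.89 in controls, 12.26, 13.90 and 13.11 in knockouts and 12.88, 12.76 and 12.88 in the cold. Both groups lay above control, by 1.09 ± 0.36 (adjusted p = 0.203) and 0.84 ± 0.36 (0.245). Timm44, which anchors the motor at the channel, read 9.05, 9.07 and 9.02 in controls, 9.46, 10.13 and 9.85 in knockouts and 9.84, 9.70 and 9.59 in the cold. Its groups were apart from control by 0.77 ± 0.16 (0.0841) and 0.66 ± 0.16 (0.0933), and 0.0841 was the lowest adjusted p of any member in knockout against control.

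Hspa9, or mortalin, the chaperone that pulls precursors in, read 14.21, 14.31 and 14.26 in controls, 14.70, 16.14 and 15.49 in knockouts and 15.66, 15.54 and 15.38 in the cold. All arrays of both other groups were above the control arrays, which lay close together. Its means were 2.28-fold and 2.41-fold that of control, by 1.19 ± 0.32 (adjusted p = 0.137) and 1.27 ± 0.32 (0.104), the latter the largest difference of any member in the cold. Grpel1, which recharges Hspa9 with ATP, read 9.34, 9.44 and 9.33 in controls, 9.68, 11.28 and 10.34 in knockouts and 10.39, 10.61 and 10.40 in the cold. Here too the groups were apart from control, by 1.06 ± 0.35 (0.205) and 1.10 ± 0.35 (0.161). Grpel2, its paralog, differed by 0.21 and 0.13, with knockout arrays above control and cold arrays overlapping it.

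Timm17a and Timm17b, paralogous channel subunits, were 1.12 ± 0.45 and -0.01 ± 0.05 in the knockout and 0.99 ± 0.45 and 0.03 ± 0.05 in the cold. Timm17a reached 13.58 on knockout replicate 2 and 11.55 on replicate 1, inside the control range of 11.25 to 11.75. Timm17b held 7.38 on 6 of the 9 arrays. Pam16, a regulator of the motor, differed by 0.70 and 0.49, Timm50, the receptor of the channel, by 0.44 and 0.24, and Timm21, which links it to TOM, by 0.20 and 0.21; each was apart from control in both groups. Of the TIM22 route, Timm22, the carrier insertase, differed by 0.65 and 0.39 without overlap and Timm29 by 0.00 and 0.08 with overlap. Timmdc1, a family relative that takes part in complex I assembly, differed by 0.34 with overlap and 0.28 without. Over the 13 genes of this group, 9 were higher without overlap in the knockout (9.40% of all genes) and 10 in the cold (14.7%). In either, 0 were called (9 and 4 at an unadjusted p under 0.05), where 0.379% and 1.56% of all genes were. The medians of the 13 were 0.65 and 0.39.

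**Figure D2:**
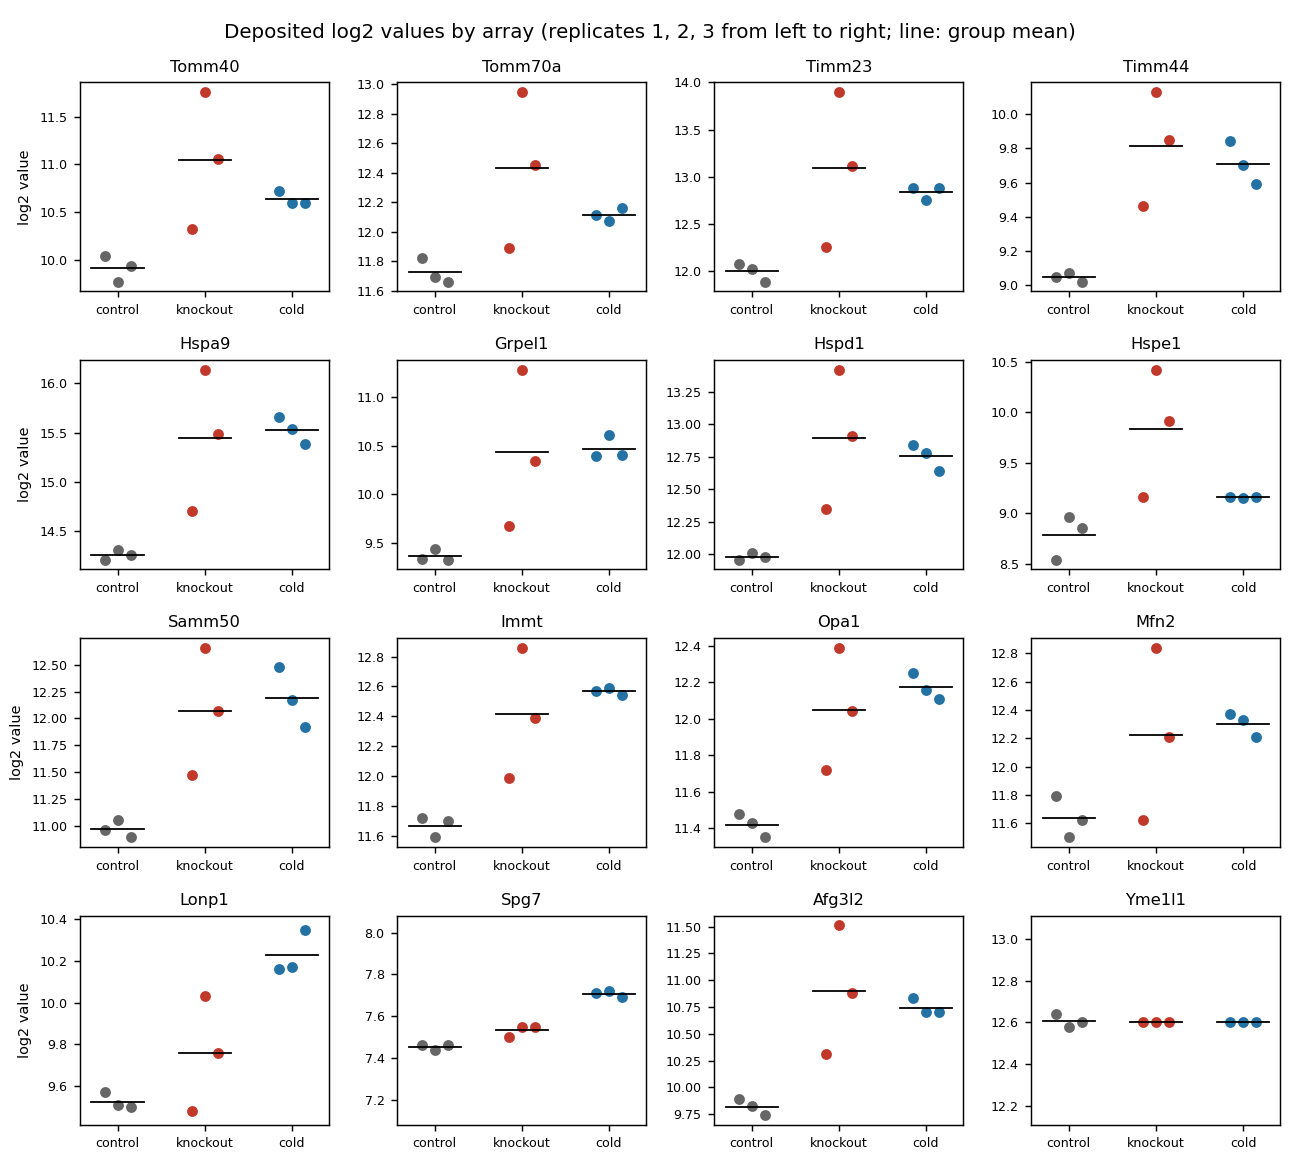
Log2 values of 16 members on each array, replicates 1, 2 and 3 from left to right in each group, with the group mean as a line; vertical scales differ between panels. Knockout replicate 2 is the highest array in every panel except those of Lonp1, Spg7 and Yme1l1; for Hspa9 it reads 16.14, against 15.38 to 15.66 in the cold.

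The matrix chaperonin folds imported proteins in a barrel of Hspd1 capped by Hspe1. Hspd1 read 11.96, 12.01 and 11.98 in controls, 12.35, 13.42 and 12.91 in knockouts and 12.84, 12.78 and 12.64 in the cold, with both groups above control. Its differences were 0.92 ± 0.24 (limma adjusted p = 0.13) and 0.77 ± 0.24 (0.151). The start of Hspe1 lies between the listed starts of Hspd1. Hspe1 read 8.54, 8.96 and 8.85 in controls, 9.16, 10.42 and 9.91 in knockouts and 9.16, 9.15 and 9.16 in the cold. Its differences were 1.05 ± 0.29 (0.148) and 0.37 ± 0.29 (0.481), and its cold arrays lay below the lowest knockout array by less than these decimals show (-0.67 ± 0.29, 0.188). Whether the paired genes differ in their response was not tested.

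Among the proteases Spg7, or paraplegin, a subunit of the m-AAA protease of the inner membrane, rose in the cold. It read 7.46, 7.44 and 7.46 in controls, 7.50, 7.55 and 7.55 in knockouts and 7.71, 7.72 and 7.69 in the cold, in 3 groups that did not overlap. The cold mean was 1.19-fold that of control (0.25 ± 0.03, limma adjusted p = 0.0161) and 1.13-fold that of the knockout (0.17 ± 0.03, 0.0423), while knockout minus control was 0.08 ± 0.03 (0.281). The change is small next to those of other members, and the spread within its groups was 0.01 to 0.02 (SD). Over 20 settings tried, cold minus control stayed between 0.25 and 0.33 and passed in 11, and cold minus knockout stayed between 0.16 and 0.27 and passed in 9. Afg3l2, which builds the same protease alone or with Spg7, differed by 1.08 ± 0.26 (0.115) and 0.92 ± 0.26 (0.134), with both groups above control.

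Lonp1, the main ATP-driven protease of the matrix, separated the cold from both other groups. It read 9.57, 9.51 and 9.50 in controls, 9.48, 10.03 and 9.76 in knockouts and 10.16, 10.17 and 10.35 in the cold. Cold arrays were above all others, at 1.62-fold control (0.70 ± 0.13, limma adjusted p = 0.0544) and 1.38-fold knockout (0.47 ± 0.13, 0.0868), and the knockout overlapped control (0.23 ± 0.13, 0.434). With a stricter filter on dim rows or with quantile normalization, Lonp1 and Opa1 passed in cold against control beside Spg7. In those settings 3.21% and 2.22% of all genes were called. Spg7 and Lonp1 were the members higher in the cold than in the knockout with no overlap, 2 of 45, against 12.3% of all genes; Tomm22 and Hspe1 were the 2 that were lower, against 20.2%. The test called Spg7 alone in this comparison, with 2 members at an unadjusted p under 0.05 and 2.42% of all genes called. Without knockout replicate 2, 8 members were higher with no overlap, against 21.9% of all genes, and 2 were called, Lonp1 and Spg7, against 16.2% of all genes.

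Clpp, the peptidase partner of the unfoldase Clpx, read 8.36, 8.43 and 8.14 in controls, 8.51, 9.12 and 8.69 in knockouts and 8.86, 8.85 and 8.64 in the cold. Its groups were above control by 0.46 ± 0.16 (adjusted p = 0.226) and 0.47 ± 0.16 (0.18), and Clpx by 0.58 ± 0.19 (0.199) and 0.71 ± 0.19 (0.117). Oma1, the stress-activated peptidase that cuts Opa1, read 7.43, 7.57 and 7.47 in controls, 7.43, 7.25 and 7.43 in knockouts and 7.43, 7.43 and 7.28 in the cold. Its groups overlapped (-0.12 ± 0.07, 0.466, and -0.11 ± 0.07, 0.422), and 5 of its 9 arrays held the same value. Yme1l1, the protease that cuts Opa1 at another site, held 12.60 on 7 of 9 arrays and differed by 0.00 in both. Parl, the rhomboid protease of the inner membrane, differed by 0.35 and 0.14, each without overlap.

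Of the genes that shape the inner membrane, Immt, the core of MICOS at cristae junctions, read 11.72, 11.59 and 11.70 in controls, 11.99, 12.86 and 12.39 in knockouts and 12.57, 12.59 and 12.54 in the cold. Both groups were above control, by 0.74 ± 0.19 (limma adjusted p = 0.13) and 0.90 ± 0.19 (0.0738), and the cold arrays lay close together (SD 0.02). Chchd3, its MICOS partner, differed by 0.93 ± 0.30 (0.20) and 0.82 ± 0.30 (0.202), also without overlap. Phb2, which forms prohibitin rings, read 9.65, 9.92 and 9.75 in controls, 10.19, 10.86 and 10.54 in knockouts and 10.28, 10.19 and 10.19 in the cold. It was above control in both groups, by 0.76 ± 0.16 (0.0869) and 0.45 ± 0.16 (0.187).

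Fusion genes were above control in the cold, all 3 without overlap, an order that held for 14.7% of all genes. Opa1, which fuses inner membranes and keeps cristae tight, read 11.48, 11.43 and 11.35 in controls, 11.72, 12.39 and 12.04 in knockouts and 12.25, 12.16 and 12.11 in the cold. The groups were 1.55-fold and 1.69-fold control, by 0.63 ± 0.15 (adjusted p = 0.112) and 0.75 ± 0.15 (0.0654). Mfn2, an outer membrane mitofusin, read 11.79, 11.50 and 11.62 in controls, 11.62, 12.84 and 12.21 in knockouts and 12.37, 12.33 and 12.21 in the cold. Knockout replicate 1 lay inside the control range, and the differences were 0.58 ± 0.27 (0.346) and 0.67 ± 0.27 (0.231). Mfn1, its paralog, read 9.26, 9.18 and 9.19 in controls, 9.19, 9.74 and 9.35 in knockouts and 9.43, 9.42 and 9.36 in the cold, with knockout replicate 1 again inside the control range and differences of 0.22 ± 0.13 (0.449) and 0.19 ± 0.13 (0.415).

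Fission genes had smaller medians than fusion genes, though Mff differed from control by more than the fusion gene Mfn1. Dnm1l, the GTPase that pinches mitochondria, read 11.44, 11.26 and 11.39 in controls, 11.47, 11.65 and 11.69 in knockouts and 11.47 on each cold array. Both groups lay just above control, by 0.24 ± 0.07 (adjusted p = 0.16) and 0.11 ± 0.07 (0.389). Fis1, an adaptor, read 7.68, 7.68 and 7.66 in controls, 7.61, 7.88 and 7.68 in knockouts and 7.68, 7.69 and 7.68 in the cold, with overlap in both (0.05 ± 0.07, 0.75, and 0.01 ± 0.07, 0.945). Mff, the main Dnm1l receptor, was above control in both groups by 0.55 ± 0.18 (0.199) and 0.49 ± 0.18 (0.196). The fission medians were 0.24 and 0.11 and the fusion medians 0.58 and 0.67, and with 3 genes each these are descriptions. Fis1 held the same value on 5 of its 9 arrays and Dnm1l on 4.

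The knockout arrays had an order that recurred from member to member. Replicate 2 was the highest knockout array for 42 of the 45 and the highest of all 9 arrays for 35, and replicate 1 was the lowest knockout array for 41. The sequence replicate 1, replicate 3, replicate 2 held for 37 of the 45 (82.2%), against 30.9% of all genes. Relative to the control mean, the median over members was 0.17, 0.95 and 0.57 on knockout replicates 1, 2 and 3 and 0.57, 0.42 and 0.38 on the cold arrays. The cold mean lay between the lowest and highest knockout array for 38 members, with replicate 2 above every cold array for 36 and replicate 1 below every cold array for 33. The median SD over members was 0.38 in the knockout and 0.08 in both the control and cold groups, where all genes had 0.14, 0.11 and 0.08.

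The whole set of arrays bears on these values. Ucp1, the mark of beige fat, was 11.74 to 13.07 in controls, 18.34, 19.92 and 19.68 in knockouts and 18.86 to 19.18 in the cold. Zfp423 read 8.22 to 8.74 in controls and 7.56, 8.15 and 8.04 in knockouts (-0.53 ± 0.20, limma adjusted p = 0.254), so the whole pad kept signal for it. Control replicate 3, knockout replicate 3 and cold replicate 2 lay between the other 2 arrays of their group for 52.8%, 62% and 42% of all genes. The remaining arrays did so for 10.1% to 18.9%. Whether the in-between arrays are independent of the others in their group is not stated in the labels and was not tested. If they are not, the errors and p-values given here are too small. For 12 members (26.7%) at least 2 arrays held the same value to 5 decimals, against 56.5% of all genes. No member had a mean above 18, near the top of the scale, the highest value being 16.14.

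Markers of cell types moved along with the members on some arrays. The median of the 7 thermogenic genes was 2.00, 5.10 and 4.31 above control on knockout replicates 1, 2 and 3, the knockout order of the members. In the cold it was 2.57 to 2.90 above control. Of the 7, 4 were called in the knockout and 5 in the cold, against 0.379% and 1.56% of all genes. The adipocyte, skeletal muscle and endothelial medians had the same knockout order, and the macrophage, T cell and B cell medians the reverse. Knockout replicates 1 and 2 read -0.44 and 0.05 for adipocyte, -1.52 and 0.37 for skeletal muscle and -0.36 and 0.05 for endothelial genes. For T cell genes they read 1.55 and -0.19, and for B cell genes 0.57 and -1.11. Over the 8 adipocyte genes the mean level was 16.81 to 17.16 in controls, 16.27 to 17.00 in knockouts and 17.06 to 17.21 in the cold, with the lowest median, -0.44, on knockout replicate 1. The macrophage median was 0.59, -1.14 and -0.31 on knockout replicates 1, 2 and 3 and -1.24 to -1.11 in the cold, where the 6 genes had mean levels of 9.41 to 9.62 against 10.24 to 11.48 in controls and 9.55 to 11.53 in knockouts. T cell genes (5 of 6 measured) had mean levels of 9.55 to 10.31 in controls, 9.69 to 11.46 in knockouts and 8.87 to 8.88 in the cold, and B cell genes (4 of 5) 10.14 to 11.90, 9.92 to 11.65 and 9.01 to 10.20. Skeletal muscle genes, 7 of 7, had mean levels of 11.96 to 12.55, 10.73 to 12.53 and 7.92 to 12.48, with cold replicate 3 lowest by a median of -3.90 from control. The 5 endothelial genes ran from 11.69 to 11.89, 11.26 to 12.14 and 12.05 to 12.32. Of these 6 lists of other cells and general adipocyte genes, 0 of 35 genes were called in any comparison. Of all genes, 0.379% were called between knockout and control, 1.56% between cold and control and 2.42% between cold and knockout. At an unadjusted p under 0.05 there were 2, 12 and 11 of the 35 in these comparisons, against 2705, 3396 and 4481 of all 16639 genes. All 5 mammary epithelial markers, Krt8, Krt18, Epcam, Cdh1 and Krt14, had rows under the floor, with means of 4.29 to 5.13. The part of these cell types in the members' values was not tested.

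**Figure D3:**
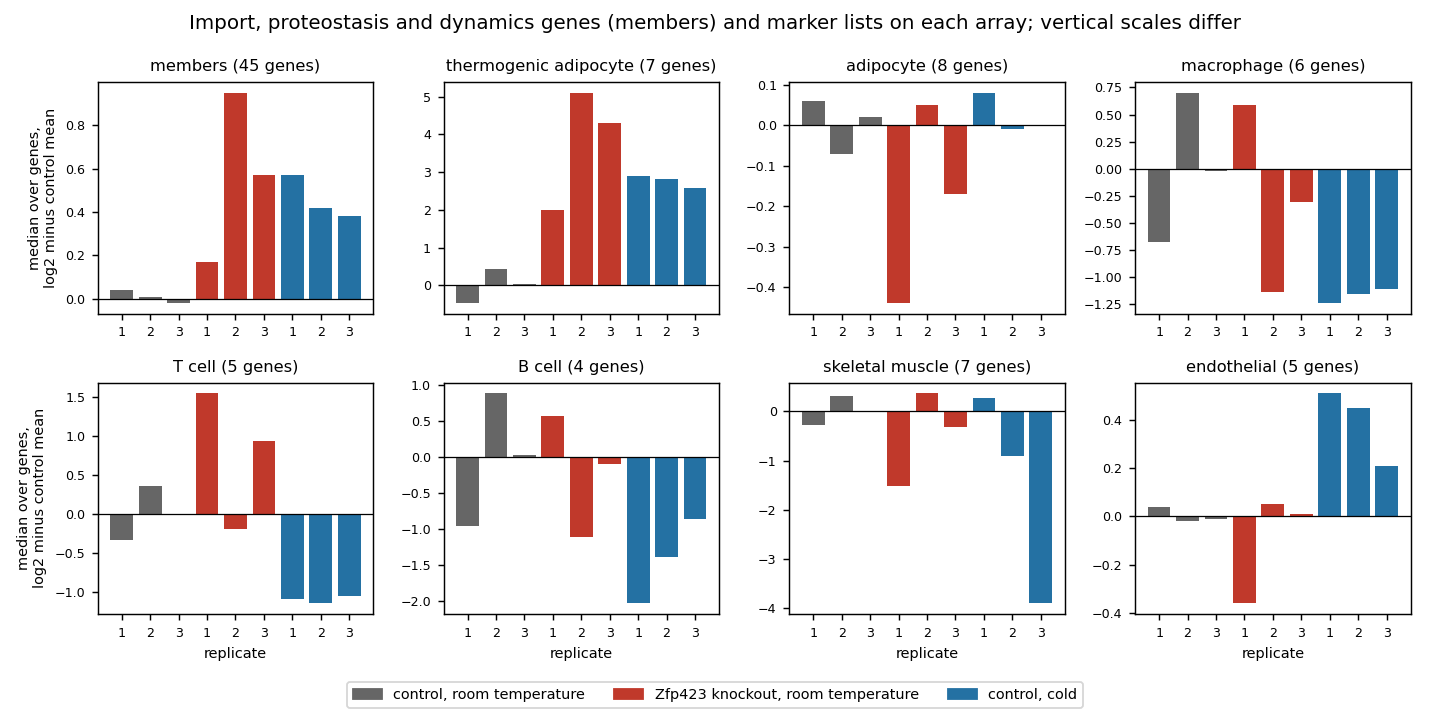
Median over the genes of each list of the log2 value minus the control mean, 1 bar for each array in the order of replicates within control, knockout and cold; vertical scales differ between panels. The members (45 genes) and the thermogenic genes share the knockout order, with replicate 1 lowest (0.17 and 2.00) and replicate 2 highest (0.95 and 5.10). Adipocyte, skeletal muscle and endothelial genes have this order too. Macrophage, T cell and B cell genes have the reverse, with macrophage genes lowest among knockouts on replicate 2 (-1.14).

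Beyond the members, 50 other genes of the same routes were tested, a list of partners in import, proteostasis, cristae, dynamics and stress response. In knockout against control 0 of 50 were called, against 0.379% of all genes. At an unadjusted p under 0.05 there were 22, of which 20 were higher. In cold against control 3 were called, all higher, against 1.56% of all genes, and in cold against knockout 1, against 2.42%. The 3 were Mipep, the peptidase that trims imported proteins in the matrix (0.61 ± 0.07, limma adjusted p = 0.0114), Ghitm, an inner membrane protein of cristae (1.13 ± 0.18, 0.0348), and Pmpcb, the catalytic subunit of the presequence protease (0.78 ± 0.14, 0.0443). Mipep read 8.53, 8.35 and 8.48 in controls, 8.54, 8.72 and 8.70 in knockouts and 9.10, 9.03 and 9.04 in the cold, and it was also the gene called against the knockout (0.41 ± 0.07, 0.0352). Without knockout replicate 1 the counts against control were 14 and 11, where 5.01% and 4.94% of all genes were called, and without knockout replicate 2 they were 0 and 14, where 0.228% and 5.91% were. In the latter setting 7 were called in cold against knockout, where 16.2% of all genes were. Fitted without the knockout arrays, the cold count was 19, where 8.1% of all genes were called.

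Cristae and import partners had the largest values among these 50. Apoo, a MICOS subunit, differed by 1.52 ± 0.39 (adjusted p = 0.125) in the knockout and 1.71 ± 0.39 (0.0834) in the cold, and Dnajc15, a J protein of the import motor, by 1.45 ± 0.30 (0.0865) and 1.46 ± 0.30 (0.0675). Dnaja3, a matrix cochaperone of Hspa9, differed by 1.34 ± 0.35 (0.136) and 1.24 ± 0.35 (0.133). In dynamics Miga2, which promotes fusion, gave 0.82 ± 0.28 (0.21) and 0.65 ± 0.28 (0.245). Of the transcription factors of mitochondrial stress, Ddit3 gave 0.59 ± 0.19 (0.198) and 0.36 ± 0.19 (0.32), and Atf5 0.50 ± 0.35 (0.522) and 0.58 ± 0.35 (0.381). The medians over the 50 were 0.22 and 0.28, below the 0.55 and 0.45 of the members; that difference was not tested.

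Other mitochondrial families are given side by side with the members. The 78 mitochondrial ribosomal protein genes had medians of 0.30 in the knockout and 0.30 in the cold, with 44 and 64 higher without overlap and 0 and 2 called (41 and 37 at an unadjusted p under 0.05). The 37 complex I genes had medians of 0.74 and 0.99, with 32 and 37 higher without overlap. Of them 1 and 11 were called (32 and 33 at an unadjusted p under 0.05). For members the medians were 0.55 and 0.45, with 31 and 35 of 45 higher without overlap and 0 and 1 called. Over all genes 9.40% and 14.7% were higher without overlap, and 0.379% and 1.56% were called. The differences between these families were not tested, and all 3 share the same control arrays.

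**Figure D4:**
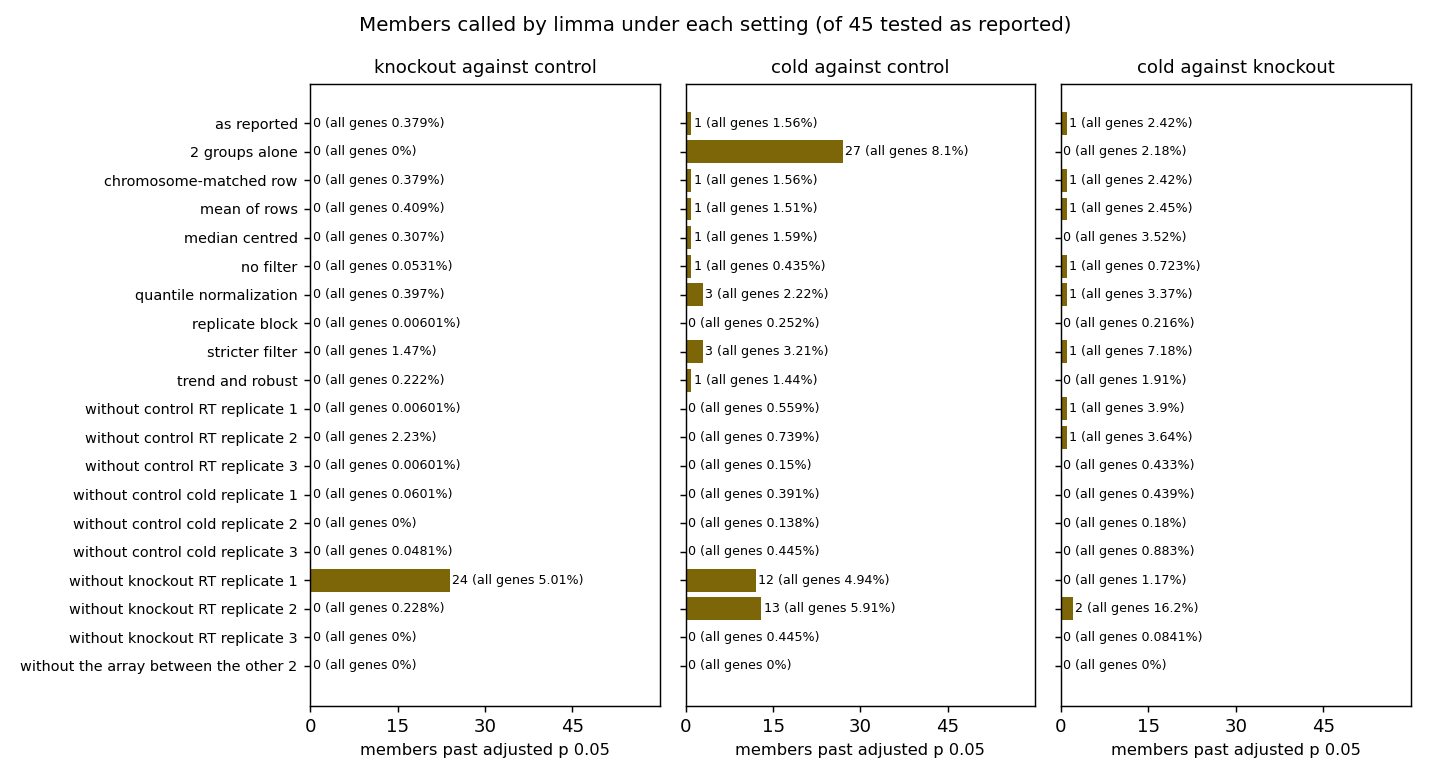
Members past an adjusted p of 0.05 in each comparison under each setting except array weights, with the share of all genes called in brackets. Knockout against control has 0 members in all drawn settings but the one without knockout replicate 1 (24), and cold against control runs from 0 to 27.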

How the data were processed

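Total RNA of inguinal fat was hybridised to Affymetrix Mouse Transcriptome Array 1.0, per the labels' protocols. The authors deposited log2 values of 72688 rows on 9 arrays, made with Affymetrix Expression Console per the submitters' processing notes. The version, the normalization and the genome were not given in the sources used here. The log2 scale was inferred from the range of 1.84 to 19.93. Counts and detection calls are not part of the table, and having 3 arrays a group limits precision.

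Rows naming 1 symbol in the platform annotation (30604, with 827 symbols updated through RefSeq GRCm38.p6) were kept at or above the median row mean, 5.31, and the brightest row of each gene was used, leaving 16639 genes. The 3 group means were estimated by limma 3.58.1 under R 4.3.3 (lmFit, eBayes, 6 residual and 1.23 prior degrees of freedom), two-sided, with Benjamini-Hochberg adjustment over all genes and a threshold of 0.05; errors are moderated standard errors. With 3 against 3 arrays an exact permutation test cannot go below 0.1 and was not used. Tables were made with Python 3.11.15 and pandas 2.3.3.

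Members, lists and motifs were chosen with earlier results of these data known. By rule, values on every array are given for members past the threshold and for a set list of Tomm20, Tomm40, Tomm70a, Timm23, Timm44, Hspa9, Grpel1, Hspd1, Lonp1, Clpp, Oma1, Opa1, Mfn1, Mfn2, Dnm1l, Fis1, Immt, Samm50 and Phb2; of the other pathway genes, those past the threshold and the largest difference of each list. Hspe1 and Timm8a1 were added after their values were seen. Alternatives were the filter, normalization, row choice, trend and robust settings, array weights, a replicate block, 2 groups alone and leaving out arrays.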

Additional observations from a re-analysis of the deposited data

How the results depend on the processing

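Of the values of single named members under the alternatives, 1059 kept their direction and side of the threshold, 91 passed only there and 20 no longer passed. Another 30, none past the threshold in either fit, changed sign, 28 of them in cold against knockout, where differences were small. Taking the comparisons in the order knockout to control, cold to control, cold to knockout, the test called 0, 1 and 1 members, 1 by the F test, and 0, 3 and 1 other pathway genes. With array weights they became 41, 39 and 21, then 40, then 45, 39 and 28, but 70.6%, 53.8% and 59.5% of all genes were then called in the 3 comparisons. The weights ran from 0.0807 to 1660 and the estimate did not converge. With the 2 groups of a comparison alone, cold against control gave 27 members and 19 other pathway genes, where 8.1% of all genes were called. Cold against knockout gave 0 and 0, where 2.18% were. A stricter filter gave 3 members and 6 other pathway genes in cold against control, where 3.21% of all genes were called. By the F test it gave 4 members. Quantile normalization gave 3 and 5 in cold against control, where 2.22% of all genes were called. With it 4 members were higher in the cold than in the knockout with no overlap, in place of 2. The share of all genes with that order was then 28.3%, in place of 12.3%. Without a filter the other pathway genes gave 1 in cold against control and 0 in cold against knockout. There 0.435% and 0.723% of all genes were called. Median centring, or trend and robust, left 0 members in cold against knockout, where 3.52% and 1.91% of all genes were called. With the replicate number as a replicate block, the limma counts were 0 in all 3 comparisons and by the F test, for members (28, 17 and 4 at an unadjusted p under 0.05) and other pathway genes. The block left 0.00601%, 0.252% and 0.216% of all genes called in the 3 comparisons. Whether the numbers pair the arrays is not stated in the labels. Deviations of control and knockout arrays of the same number correlated at -0.46, -0.46 and 0.02. Control 1 correlated with knockout 2 at 0.45 and control 2 with knockout 1 at 0.47, and the remaining pairs ran from -0.05 to 0.05. The deviations of the 3 arrays of a group sum to 0, so these correlations cannot decide on pairing. Without the array of each group between its other 2, chosen after seeing the data, all counts were 0 (2, 4 and 1 members at an unadjusted p under 0.05), with fewer residual degrees of freedom. In that fit 0 of all 16639 genes were called in any comparison. Leaving out 1 array at a time gave 0 to 24, 0 to 13 and 0 to 2 members, 0 to 22 by the F test, and 0 to 14, 0 to 14 and 0 to 7 other pathway genes; the members higher in the cold than in the knockout with no overlap ran from 2 to 8, and their median difference, -0.10, from -0.28 without knockout replicate 1 to 0.09 without knockout replicate 2. These 1-array fits called 0% to 5.01%, 0.138% to 5.91% and 0.0841% to 16.2% of all genes. The share of all genes higher in the cold than in the knockout with no overlap ran from 12.3% to 21.9%. The medians of members against control ran from 0.36 to 0.79 in the knockout and from 0.42 to 0.47 in the cold when 1 array was left out. The cause of these changes was not tested.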
